A study of Arabidopsis thaliana with 2 samples.

Results

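The ERF and DREB genes of Arabidopsis thaliana encode plant transcription factors of the AP2/ERF family. Peaks of DNA bound by a pair of SEP3-AG complexes, made of the MADS-domain floral regulators SEPALLATA3 and AGAMOUS, were located relative to 43 of these genes, out of 27444 protein-coding genes on chromosomes 1 to 5. Members were the protein-coding genes whose symbol or a synonym in the TAIR10.1 RefSeq gene table is ERF, RAP2. or DREB followed by digits and at most 1 letter. Of 48 genes with such a name, 5 were left out because they belong to the DREB1/CBF cold-response genes or the AP2-type floral repressors. Names, and no peak value, enter the rule, which took 35 members through the current symbol and 8 through a synonym. The gene set was, however, chosen with earlier results of these data known. RAV2 (also TEM2), which carries a B3 domain beside its AP2 domain, entered through its synonym RAP2.8.

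Proteins of the ERF and DREB branches of the AP2/ERF family bind short GC-rich elements with a conserved AP2 domain. The ERF branch is best known for recognising the GCC box in genes switched on by ethylene, jasmonate or pathogens. The DREB branch is best known for recognising the dehydration-responsive element in genes of drought, cold and heat responses. Ethylene is sensed by membrane receptors, which act through the kinase CTR1 and the membrane protein EIN2 on the transcription factor EIN3, and EIN3 in turn activates ERF1. SEP3 and AG, in contrast, bind elements called CArG boxes as dimers, and dimers can assemble into tetramers that contact a pair of boxes.

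The measurement was sequential DNA affinity purification sequencing, in which a protein complex made outside the plant is mixed with fragmented genomic DNA, purified, and its bound DNA sequenced. The complexes were SEP3Δtet3M-AG and SEP3Δtet-AGΔtet, each with 1 peak list and both tetramerization mutants in the series' design text, and by their names both carry an altered SEP3, SEP3Δtet-AGΔtet an altered AG too. The genotype labels name SEP3Δtet3M-AG for both samples, so the complexes were told apart by the sample titles, and the labels do not say what 3M stands for. The DNA came from bulk, untreated 2-week-old seedlings, and purified DNA lacks the chromatin of a living cell. The unaltered complex was not analysed here. The SEP3Δtet3M-AG list held 1681 peaks and the SEP3Δtet-AGΔtet list 2277, each 400 bp wide and with no score, so a peak is present or absent. The read depth behind each list is unknown, and with 1 list per complex a difference between the lists has no replicate error and no test. Intervals are exact 95% Clopper-Pearson intervals, which cover the counting of genes or peaks only.

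Few ERF and DREB genes lay near a SEP3Δtet3M-AG peak, and more lay near a SEP3Δtet-AGΔtet peak. A gene was counted when the midpoint of a peak fell in it or at most 3000 bp from either end. With SEP3Δtet3M-AG this held for 4 of 43 genes (9.3%, interval 2.59 to 22.1), against 12.0% of the other 27401 protein-coding genes. With SEP3Δtet-AGΔtet it held for 12 of 43 (27.9%, interval 15.3 to 43.7), against 15.8% of the others. The interval with SEP3Δtet3M-AG spans the share of the other genes. With SEP3Δtet-AGΔtet the share of the other genes, 15.8%, is inside the interval, just above its lower bound. The remaining 31 genes (72.1%) had a peak in neither list, against 80.8% of the other genes.

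The 4 genes with a SEP3Δtet3M-AG peak all had a SEP3Δtet-AGΔtet peak too. They are the ethylene and defence regulators ERF14 and TDR1, the repressor ERF7, and RAP2.10, a DREB-branch protein. A peak in both lists was thus found at 9.3% of the ERF and DREB genes, against 8.65% of the other genes. A peak in the SEP3Δtet3M-AG list alone was found at 0 of 43 (upper bound 8.22%), against 3.39% of the others. The other 8 genes had a peak with SEP3Δtet-AGΔtet alone, 18.6% of the members (interval 8.39 to 33.4). They are ERF1, ERF4, ERF8, ERF115, CRF8, DREB26, RAP2.4 and RAV2. Of the other protein-coding genes 7.13% did, a share below the interval, and the difference was not tested. Without RAV2 the count was 7 of 42, and with members by current symbol only it was 5 of 35. No interval was computed for these counts, so the 7.13% is not shown to lie below them. Within 1000 bp the count of 8 fell to 3, and with the nearest gene only to 5. The share of other genes was not computed for these settings, and the 7.13% holds for 3000 bp with every gene in reach. All 8 members found in just 1 list thus fell to SEP3Δtet-AGΔtet (interval 63.1 to 100%), and so did 67.8% of the 2885 other genes found in just 1 list. The interval of the members includes that share.

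**Figure D1:**
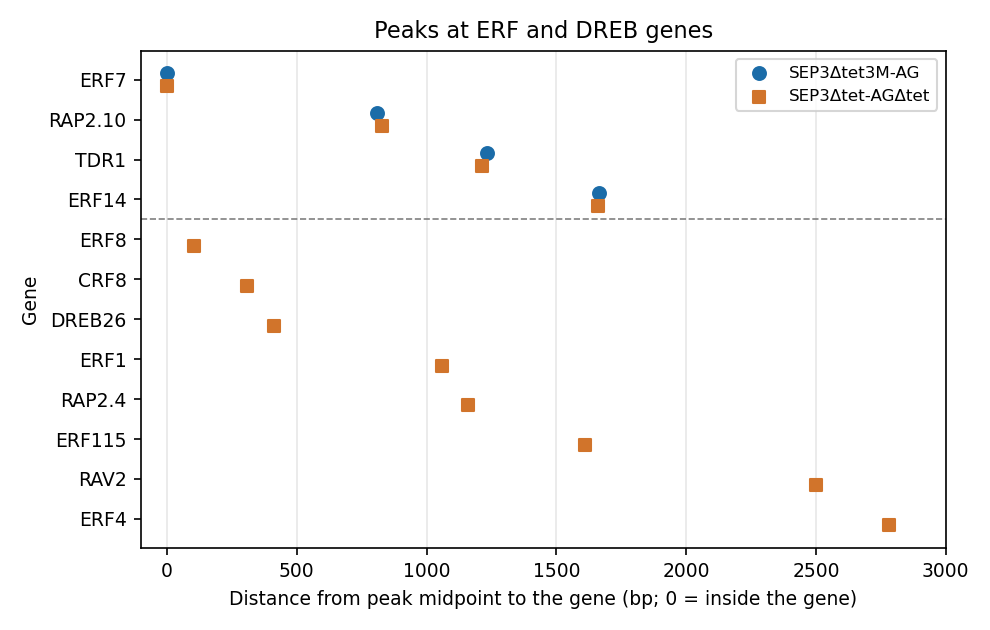
Distance in bp from the peak midpoint to the gene (0 is inside it) for the 12 ERF and DREB genes with a peak, SEP3Δtet3M-AG as circles and SEP3Δtet-AGΔtet as squares. Above the dashed line are the 4 genes with a peak in both lists, whose midpoints lie 1 to 21 bp apart between lists, and below it the 8 with a SEP3Δtet-AGΔtet peak alone, from 105 bp at ERF8 to 2781 bp at ERF4.

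Among the activators of ethylene and jasmonate responses (ERF group IX), 2 of the 11 members had a SEP3Δtet3M-AG peak and 3 had a SEP3Δtet-AGΔtet peak. The intervals, 2.28 to 51.8% and 6.02 to 61.0%, include the 12.0% and 15.8% of other protein-coding genes. ERF14, needed for the induction of defence genes, had its peak on chromosome 1 at 1173171 to 1173570 with SEP3Δtet3M-AG and at 1173172 to 1173571 with SEP3Δtet-AGΔtet. The 2 midpoints lay 1 bp apart, 1663 and 1662 bp from the gene, and no other protein-coding gene lay within 3000 bp. TDR1 (also ERF98), a regulator of defence and salt responses, had a peak on chromosome 3 at 8291197 to 8291596 with SEP3Δtet3M-AG and at 8291179 to 8291578 with SEP3Δtet-AGΔtet. These midpoints lay 1232 and 1214 bp from TDR1, the nearest gene, and also within 3000 bp of ESE1, a further AP2/ERF gene that the name rule does not take.

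ERF1, which joins ethylene and jasmonate signals in defence, follows TDR1 on the chromosome after a gap of 5452 bp. It had a SEP3Δtet-AGΔtet peak of its own at 8297464 to 8297863, with the midpoint 1059 bp from the gene, and the peaks near TDR1 lay beyond the limit. The nearest SEP3Δtet3M-AG peak was 4221 bp from ERF1. The stretch with ESE1, TDR1 and ERF1 thus held 1 site found with both complexes and 1 found with SEP3Δtet-AGΔtet alone. The other 8 group IX members, ERF-1, ERF2, ERF5, ERF6, ERF13, ERF15, ERF104 and ERF105, had no peak in reach in either list. Among these the nearest SEP3Δtet3M-AG peak was 8237 bp away, at ERF2, and the nearest SEP3Δtet-AGΔtet peak 6285 bp away, at ERF-1.

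The 8 members listed as EAR-motif repressors of ERF group VIII silence their targets through this short motif. Of these, 1 had a SEP3Δtet3M-AG peak and 3 had a SEP3Δtet-AGΔtet peak. The intervals, 0.316 to 52.7% and 8.52 to 75.5%, include the 12.0% and 15.8% of other protein-coding genes. ERF7, a repressor of abscisic acid responses, was the only one of the 43 genes with a peak midpoint inside it. That peak lay on chromosome 3 at 7084764 to 7085163 with SEP3Δtet3M-AG and at 7084752 to 7085151 with SEP3Δtet-AGΔtet, with midpoints 12 bp apart. Inside the gene is where 2.33% of the ERF and DREB genes had a peak in each list, against 3.17% of other genes with SEP3Δtet3M-AG and 3.80% with SEP3Δtet-AGΔtet. The gene table gives no exons, so the position within ERF7 is not resolved further.

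ERF8 had the peak closest to a gene among those outside one. Its SEP3Δtet-AGΔtet peak, on chromosome 1 at 19822305 to 19822704, had its midpoint 105 bp from the gene, and the nearest SEP3Δtet3M-AG peak was 8723 bp from it. ERF4, a repressor in ethylene, jasmonate and leaf-ageing responses, had the most distant peak within the limit. This SEP3Δtet-AGΔtet peak, on chromosome 3 at 5125144 to 5125543, was 2781 bp from ERF4 and nearer to AT3G15220 at 1247 bp. The nearest SEP3Δtet3M-AG peak was 93851 bp from ERF4. ERF3, ERF9, ERF10, ERF11 and ERF12 had none in reach, although ERF11 and ERF12 are neighbours with a gap of 2668 bp.

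No peak of either list lay within 3000 bp of the low-oxygen response genes of ERF group VII or of the DREB2-type genes, groups too small to tell this from the 12.0% and 15.8% of other genes. Group VII proteins are stable when oxygen is scarce and are degraded otherwise. Its 5 members are RAP2.2, RAP2.12, EBP (also RAP2.3), ERF71 and ERF73, and a count of 0 of 5 allows a share of up to 52.2%. RAP2.2 came closest, with nearest peaks at 4081 bp for SEP3Δtet3M-AG and 4090 bp for SEP3Δtet-AGΔtet. The 4 DREB2-type members, DREB2A, DREB2B, DREB2C and DREB19, belong to a group known for drought and heat responses, and 0 of 4 allows a share of up to 60.2%. Their nearest peaks ranged from 6300 bp at DREB19 to 25908 bp at DREB2B with SEP3Δtet3M-AG. With SEP3Δtet-AGΔtet they ranged from 6305 bp at DREB19 to 25904 bp at DREB2B.

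Of the 4 members of ERF group X, which includes regulators of wound responses and regeneration, 0 had a SEP3Δtet3M-AG peak and 1 had a SEP3Δtet-AGΔtet peak. That gene was ERF115 (AT5G07310), which acts in the renewal of root stem cells. Its peak lay on chromosome 5 at 2308250 to 2308649, 1612 bp from ERF115 and nearer to APC3 at 1414 bp. RAP2.6, Rap2.6L and ERF110 had none in reach, and Rap2.6L came closest with nearest peaks at 4968 bp for SEP3Δtet3M-AG and 4964 bp for SEP3Δtet-AGΔtet. The intervals of the group, 0 to 60.2% and 0.631 to 80.6%, include the 12.0% and 15.8% of other protein-coding genes.

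The 11 members outside these groups held 1 gene with a SEP3Δtet3M-AG peak and 5 with a SEP3Δtet-AGΔtet peak. The first interval, 0.23 to 41.3%, includes the 12.0% of other protein-coding genes. The second, 16.7 to 76.6%, starts just above their 15.8%, and this remainder group was not tested. RAP2.10 (also DEAR4), which joins a DREB-type AP2 domain with an EAR motif, was the gene with both. Its peak on chromosome 4 at 17390472 to 17390871 with SEP3Δtet3M-AG and at 17390493 to 17390892 with SEP3Δtet-AGΔtet lay 809 and 830 bp from the gene. Both midpoints were inside the neighbouring gene LEJ2. DREB26 had a SEP3Δtet-AGΔtet peak on chromosome 1 at 7698045 to 7698444, 413 bp from the gene with no other gene in reach. The nearest SEP3Δtet3M-AG peak was 18292 bp from DREB26.

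CRF8 and RAP2.4 were likewise the nearest genes to their SEP3Δtet-AGΔtet peaks. CRF8, a member of the cytokinin response factor family, had its peak on chromosome 1 at 26823782 to 26824181, 310 bp away. RAP2.4 (AT1G78080, also WIND1), which promotes callus formation at wounds, had its peak at 29367168 to 29367567, 1160 bp away with no other gene in reach. A second gene with the synonym RAP2.4, AT1G22190, had its nearest peaks at 5232 bp with SEP3Δtet3M-AG and 5229 bp with SEP3Δtet-AGΔtet. RAV2, a repressor of the flowering signal gene FT, had a SEP3Δtet-AGΔtet peak at 25877455 to 25877854, 2501 bp away and nearer to STN7 at 1992 bp. RAP2.1, RAP2.9, RAP2.11, ERF38 and ERF53 had none in reach. RAP2.9 lay just outside the limit with SEP3Δtet3M-AG, at 3102 bp, and ERF38 with both lists, at 3582 bp for SEP3Δtet3M-AG and 3581 bp for SEP3Δtet-AGΔtet.

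Peaks at ERF and DREB genes lay mostly in the flanks. With SEP3Δtet3M-AG, 1 of 4 peaks was inside, 1 was up to 1000 bp outside and 2 were beyond that. With SEP3Δtet-AGΔtet, 1 of 12 was inside, 4 were up to 1000 bp outside and 7 were beyond that. The share inside was 8.33% with SEP3Δtet-AGΔtet (interval 0.211 to 38.5), and for other genes 22.5% of the pairs of a gene and a peak in reach were inside, which the interval includes. With SEP3Δtet3M-AG it was 25.0% for both. Of such pairs for other genes, 28.2% with SEP3Δtet3M-AG and 29.9% with SEP3Δtet-AGΔtet were 1 to 1000 bp away. A further 46.8% and 47.6% were over 1000 bp away, and the members' intervals include each of these shares. Because the table gives no strand, upstream and downstream sides are not told apart. The member was the nearest protein-coding gene for 3 of 4 SEP3Δtet3M-AG peaks and 8 of 12 SEP3Δtet-AGΔtet peaks. The intervals, 19.4 to 99.4% and 34.9 to 90.1%, include the shares for pairs of other genes, 44.7% and 45.2%. A gene other than the member was also within 3000 bp for 3 of the SEP3Δtet3M-AG and 9 of the SEP3Δtet-AGΔtet peaks. No peak was counted for more than 1 member.

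All 4 SEP3Δtet3M-AG peaks at these genes overlapped a SEP3Δtet-AGΔtet peak (interval 39.8 to 100%), against 68.7% of the other SEP3Δtet3M-AG peaks in or near protein-coding genes. Of the 12 SEP3Δtet-AGΔtet peaks there, 4 overlapped a SEP3Δtet3M-AG peak (33.3%, interval 9.92 to 65.1), against 50.2% of the other SEP3Δtet-AGΔtet peaks in or near protein-coding genes. Both intervals include the share of the other peaks. The 4 pairs had midpoints 1, 12, 18 and 21 bp apart, against a median of 8 bp over all overlapping peaks. For the 8 peaks that did not overlap, the nearest SEP3Δtet3M-AG midpoint was 6267 bp away at ERF1 and 91070 bp away at ERF4. The median was 26922.5 bp, and the same distance for other such SEP3Δtet-AGΔtet peaks is not given here.

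**Figure D2:**
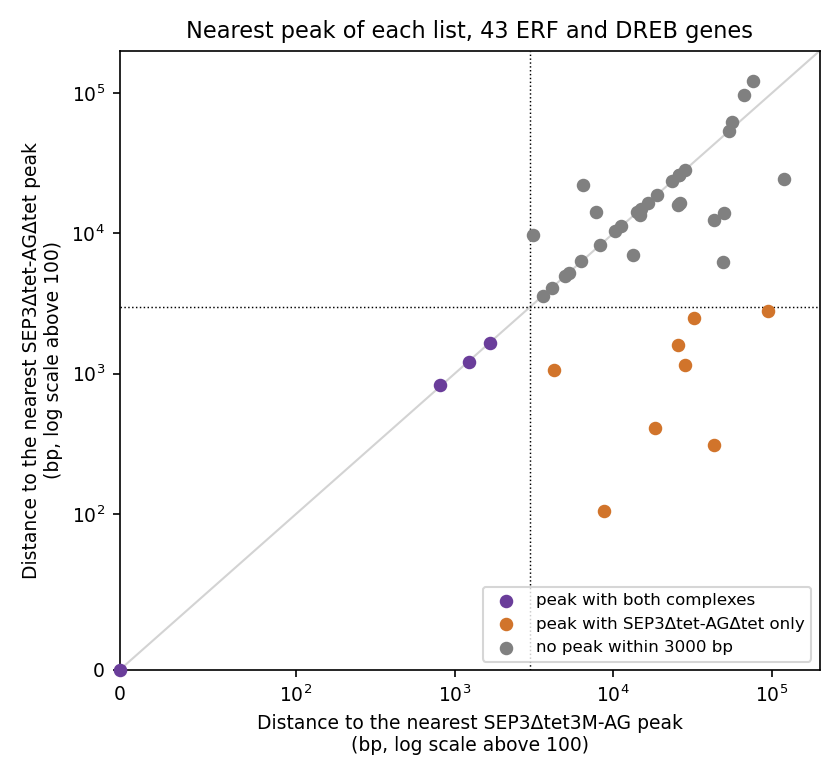
Distance in bp from each of the 43 ERF and DREB genes to the nearest SEP3Δtet3M-AG peak (x axis) and the nearest SEP3Δtet-AGΔtet peak (y axis), on scales that are linear to 100 bp and logarithmic above. Dotted lines mark 3000 bp and the grey line equal distances. The 8 genes with a SEP3Δtet-AGΔtet peak alone sit below the horizontal line, and many of the 31 genes with no peak in reach sit on the grey line.

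The distance to the nearest peak gives a value for every gene. Its median over the 43 genes was 16480 bp with SEP3Δtet3M-AG, against 21380 bp for other protein-coding genes, and 10310 bp with SEP3Δtet-AGΔtet, against 15690 bp. Among the 31 genes with no peak in reach, the nearest peaks of the 2 lists overlapped at 17 (54.8%, interval 36.0 to 72.7), against 39.3% of other genes with no peak in reach. RAP2.2, ERF38 and Rap2.6L are examples, and the interval lies partly below the share of the other genes.

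The limit on distance moved the comparison with other genes. Within 1000 bp, 2 of the 43 genes had a SEP3Δtet3M-AG peak (4.65%, against 6.61% of other genes) and 5 had a SEP3Δtet-AGΔtet peak (11.6%, interval 3.89 to 25.1, against 8.69%). Within 5000 bp, 9 had a SEP3Δtet3M-AG peak (20.9%, interval 10.0 to 36.0, against 17.3%) and 15 a SEP3Δtet-AGΔtet peak (34.9%, interval 21.0 to 50.9, against 22.6%). The interval with SEP3Δtet-AGΔtet includes the share of other genes at both of these limits.

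**Figure D3:**
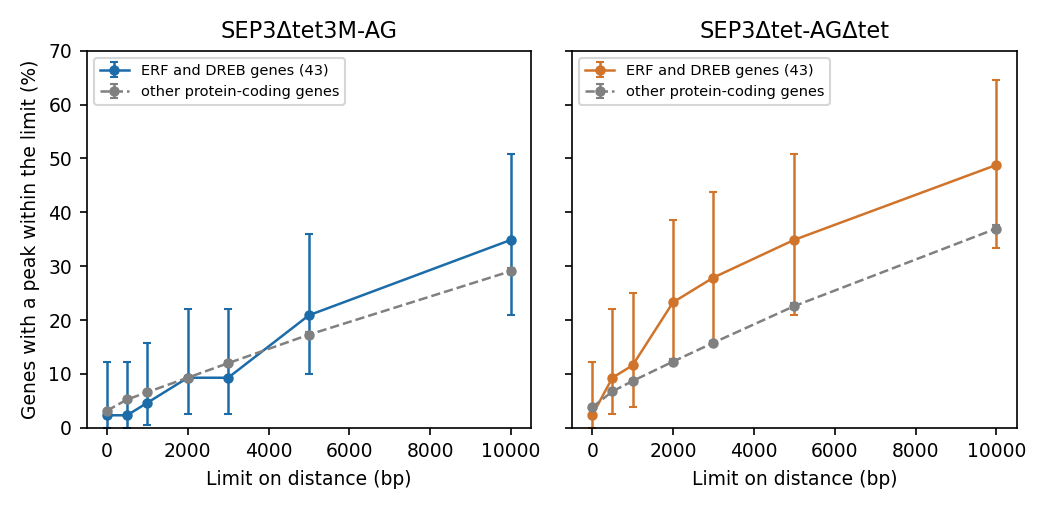
Percent of genes with a peak midpoint inside or within each limit (bp), for the 43 ERF and DREB genes (solid) and other protein-coding genes (dashed), with SEP3Δtet3M-AG on the left and SEP3Δtet-AGΔtet on the right. Bars are exact 95% intervals. With SEP3Δtet-AGΔtet the solid line stands at 27.9% at 3000 bp, against 15.8% for other genes, and at 2.33% inside genes, against 3.80%.

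The median ERF and DREB gene was short and stood in a wide gap. Median length was 1280 bp, against 2079 bp for other protein-coding genes, and the median summed gap to both neighbouring protein-coding genes was 4703 bp, against 1832 bp. Within the family this gap was 6521 bp for the 12 genes with a SEP3Δtet-AGΔtet peak and 3114 bp for the 31 with no peak. The same split of other genes by peak is not given here, so the contrast is not shown to be particular to the family. The part of gap width in the counts was not tested. By chromosome, a SEP3Δtet-AGΔtet peak was found at 6 of 15 members on chromosome 1, 0 of 7 on chromosome 2 and 4 of 7 on chromosome 3. It was found at 1 of 4 on chromosome 4 and 1 of 10 on chromosome 5. In this order the intervals were 16.3 to 67.7%, 0 to 41.0%, 18.4 to 90.1%, 0.631 to 80.6% and 0.253 to 44.5%. Shares of other genes by chromosome are not given here, and no difference between chromosomes was tested.

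The role lists also held 27 AP2/ERF genes whose names the rule does not take. Of these, 3 had a SEP3Δtet3M-AG peak and 3 a SEP3Δtet-AGΔtet peak (11.1%, interval 2.35 to 29.2 for each), which includes the 12.0% and 15.8% of genes outside the ERF and DREB set. ESE1 and ABR1, a repressor of abscisic acid responses, had one in both lists. AT2G33710, in ERF group X, had a peak with SEP3Δtet3M-AG alone, 2692 bp away, and CRF4, a cytokinin response factor, with SEP3Δtet-AGΔtet alone, 485 bp away. The SHINE genes of wax synthesis (0 of 3), the genes of shoot meristem and organ initiation (0 of 4) and the remaining DREB2-type genes (0 of 4) had none in either list.

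Genes that make or transmit ethylene had a peak at 5 of 26 with SEP3Δtet3M-AG (19.2%, interval 6.55 to 39.4) and at 10 of 26 with SEP3Δtet-AGΔtet (38.5%, interval 20.2 to 59.4). The 5 were among the 10. The share of genes outside the ERF and DREB set was 12.0% with SEP3Δtet3M-AG, inside the first interval. With SEP3Δtet-AGΔtet it was 15.8%, below the second interval. The ethylene list was chosen with earlier results of these data known, and no test was made of either share. EIN3, the factor that activates ERF1, had a peak midpoint inside it with each complex. Its relative EIL1 had one 2543 bp away with SEP3Δtet3M-AG and 2529 bp away with SEP3Δtet-AGΔtet. EBF2, which targets EIN3 for degradation, had one 354 bp away with SEP3Δtet3M-AG and 361 bp away with SEP3Δtet-AGΔtet, and the receptor EIN4 had one 284 bp away with SEP3Δtet3M-AG and 285 bp away with SEP3Δtet-AGΔtet. The synthesis gene ACS9 completes the group with both, and ERS2, EIN2, EIL2, ACS11 and EFE had a SEP3Δtet-AGΔtet peak alone. By step, the receptors counted together with RTE1 held 1 of 6 with SEP3Δtet3M-AG and 2 of 6 with SEP3Δtet-AGΔtet. Signal transduction held 3 of 9 and 5 of 9, and synthesis 1 of 11 and 3 of 11, numbers too small to rank the steps.

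**Figure D4:**
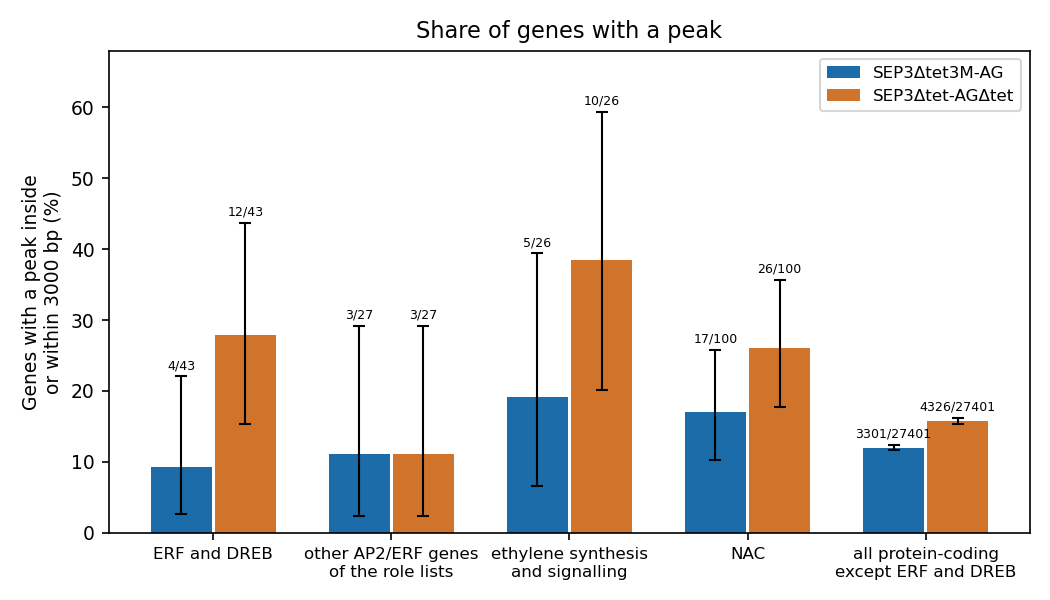
Percent of genes with a peak midpoint inside or within 3000 bp, with SEP3Δtet3M-AG and SEP3Δtet-AGΔtet bars for the 43 ERF and DREB genes, 27 other AP2/ERF genes, 26 ethylene genes, 100 NAC genes and the other 27401 protein-coding genes. Error bars are exact 95% intervals, and counts stand above them. The ERF and DREB genes stand at 9.3% with SEP3Δtet3M-AG and 27.9% with SEP3Δtet-AGΔtet.

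Beside other families, the shares of the ERF and DREB genes are given without a test. Of 100 NAC genes, a further large family of plant transcription factors, 17.0% had a SEP3Δtet3M-AG peak (interval 10.2 to 25.8) and 26.0% a SEP3Δtet-AGΔtet peak (interval 17.7 to 35.7), beside 12.0% and 15.8% of genes outside the ERF and DREB set. A SEP3Δtet-AGΔtet peak alone was found at 11 of the 100 NAC genes (interval 5.62 to 18.8%). This interval includes the 7.13% of genes outside the ERF and DREB set. Of the 6 DREB1/CBF genes left out by the rule, 3 had a peak in both lists (interval 11.8 to 88.2%). Of the 6 AP2-type floral repressors, 4 did (interval 22.3 to 95.7%). The share of genes outside the ERF and DREB set was 8.65%, below both intervals, and neither difference was tested. The DREB1/CBF genes and the AP2-type floral repressors each had 0 of 6 genes with a SEP3Δtet-AGΔtet peak alone (upper bound 45.9%). These groups are too small to set against the 18.6% of the ERF and DREB genes. Whether the families differ was not tested.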

How the data were processed

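Per the submitters' processing notes, the authors used Bowtie2, SAMtools and MACS2. Their versions and settings, the genome build and any pooling were not given in the sources used here. Deposited files hold only chromosome, start and end of each peak, with no score. Peak coordinates are printed counted from 1. Genes came from the TAIR10.1 RefSeq gene table, used for names and distances, and its coordinates are not printed, since no build is named for the peaks. As a check of fit, 52.2% of SEP3Δtet3M-AG and 46.7% of SEP3Δtet-AGΔtet midpoints lay inside protein-coding genes, against 57.6 to 59.5% and 59.4 to 61.0% after moving all peaks by 2000 to 20000 bp. Peaks sharing at least 1 bp between lists were called shared. Every member with a peak is named, other genes only from fixed lists or as neighbours. All 85 listed role and ethylene genes were found in the table, 32 of them members. Members and lists were chosen with earlier results of these data known. With 1 list per complex no test was run. Alternatives varied the distance limit, gene assignment, overlap and member names. The peak matching was tested on simulated data. Python 3.11.15, pandas 2.3.3 and SciPy 1.17.1 were used. Sequences were not used here.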

Additional observations from a re-analysis of the deposited data

How the results depend on the processing

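The counts of ERF and DREB genes depended mainly on the distance limit, and no stricter peak threshold could be tried because the lists carry no score. At 1000 bp, 2 genes had a SEP3Δtet3M-AG peak, 5 a SEP3Δtet-AGΔtet peak, 2 both and 3 SEP3Δtet-AGΔtet alone. At 5000 bp, 9 had a SEP3Δtet3M-AG peak, 8 both and 1 SEP3Δtet3M-AG alone. Inside the gene, the same 1 gene had a peak in each list and both, and 0 had SEP3Δtet-AGΔtet alone. Distance from the peak edge gave 1 gene with SEP3Δtet3M-AG alone. With SEP3Δtet-AGΔtet alone, counting the nearest gene only left 5 genes, and so did members by current symbol only. These 14 counts moved by over 1.5 times or to or from 0. A narrower or wider limit sets the direction of change in the counts per list by construction, but not its size. The other counts stayed within 1.5 times, including those without RAV2, an alternative chosen after seeing the data. For SEP3Δtet-AGΔtet alone, neither an interval nor a matching share of other genes was computed under the alternatives. Shares of shared and inside peaks stayed within their wide intervals, although at 1000 bp the share inside was 50% with SEP3Δtet3M-AG, against 25% at 3000 bp, and 20% with SEP3Δtet-AGΔtet, against 8.33%. No paired analysis was possible because each complex has 1 list and no replicate number. Unknown depth limits every count, and a missing peak does not show that binding is absent.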
